A study of Mus musculus with 38 samples.

Results

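The genes described here are *Cs*, *Idh2*, *Idh3a*, *Idh3g*, *Ogdh*, *Sucla2*, *Suclg1*, *Fh1* and *Mdh2*, which encode enzymes of the tricarboxylic acid cycle or their subunits. Their promoters were taken from a table of 10819 clusters of transcription start sites as every cluster whose recorded position lay within 500 bp, on the same strand, of an annotated 5′ end of the gene. All 9 genes had a cluster, and each had only 1, so that 9 of the 10819 clusters are described. The same 9 clusters were found within 100 bp and within 1000 bp, and none of the genes was absent. The clusters were measured in the soleus, a postural muscle of the lower leg, of male C57BL/6J mice without any transgene or mutation, with 1 library per mouse. The labels give no ages. Capped 5′ ends of RNA were counted by nAnT-iCAGE, which does not amplify the RNA by PCR, so that a level is a number of RNA starts and does not depend on the length of the gene.

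Experiment 1 held 28 libraries. The Pre mice (n = 4) had food and were sampled on day 1, the Mid mice (n = 8) were sampled on day 2 after food was removed at a low ambient temperature to induce torpor, some in torpor and some between bouts, and the Post mice (n = 4) were sampled on day 3 with food returned. On day 2, the HiT mice (n = 4) were fasted at a high ambient temperature that prevents torpor, the Fed mice (n = 4) kept their food at the low ambient temperature, and the Dep mice (n = 4) were fasted at the low ambient temperature and kept from torpor by touch. By the methods the ambient temperature did not change during a recording, which places the Pre and Post mice at the low temperature as well. Pre and HiT therefore differ in food, ambient temperature and day, and Pre and Fed in day. Experiment 2 held another batch of mice, with 2 Pre, 5 Mid and 3 Post libraries. For food, the labels and the methods of the study differ: the design text gives HiT as with food and the labels of the Fed samples read starvation. The methods were followed. A comparison named HiT to Mid gives the level in Mid relative to HiT, and likewise for the others.

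The tricarboxylic acid cycle runs in the mitochondrial matrix and oxidises the acetyl group of acetyl-CoA, which comes from pyruvate or from fatty acids. The electrons are passed on as NADH and FADH2 to the respiratory chain, and slow oxidative muscle such as the soleus is rich in these enzymes. During daily torpor a fasted mouse lowers its metabolic rate and body temperature for hours and burns mainly fat.

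The libraries held between 18257657 and 39176649 tags in clusters in experiment 1 and between 9359994 and 20914855 in experiment 2. The 10 clusters with the most tags took 15.1 to 40.3% of a library. The highest share was in HiT replicate 4, which also had the lowest scaling factor by the trimmed mean of M-values (TMM; 0.679). Levels are therefore given as normalised tags, the tags per 1000000 tags in clusters after TMM within each experiment, and results for HiT are also given without this library. For the soleus label, the 7 markers of slow muscle (*Myh7*, *Myl2*, *Myl3*, *Tnnt1*, *Tnni1*, *Tnnc1* and *Atp2a2*) all had a cluster. Together they held between 6503 and 29059 TPM in each library. The 8 markers of fast glycolytic muscle (*Myh4*, *Myh1*, *Pvalb*, *Actn3*, *Mylpf*, *Tnnt3*, *Tnni2* and *Tnnc2*) held between 7602 and 34703 TPM, and either sum was the higher in some libraries. The markers thus show slow muscle RNA in every library but do not settle which muscle was sampled. Each member had at least 1727 tags in every library. The p-values measure the spread between mice of the same batch.

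All 9 clusters lay at the annotated start of their gene in mm10. The recorded position was 20 bp upstream of the annotated 5′ end for *Ogdh* (chr11:6291502-6292726, plus strand), 5 bp upstream for *Cs* (chr10:128337644-128338004, plus strand) and 2 bp upstream for *Idh3a* (chr9:54586291-54586853, plus strand). It was between 2 and 36 bp downstream for *Idh2* (chr7:80115009-80115556, minus strand), *Suclg1* (chr6:73248411-73248754, plus strand), *Mdh2* (chr5:135778400-135778801, plus strand), *Fh1* (chr1:175625445-175625690, minus strand), *Idh3g* (chrX:73786758-73787156, minus strand) and *Sucla2* (chr14:73552693-73553172, plus strand). The recorded position fell in an annotated exon of the gene for all but *Ogdh*. The clusters were 246 to 1225 bp wide, with a median of 402 bp against 281 bp over all clusters. The start of *Idh3g* lay 161 bp from that of *Ssr4* on the other strand, and the start of *Mdh2* lay 296 bp from that of *Styxl1* on the other strand.

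The start sites of 5 members are shown because the RefSeq promoter windows (GRCm38.p6, 300 bases each) of these genes cover them. Each run has 60 bases, 5′ to 3′, and ends 2 bases downstream of the position recorded in the table. Capitals mark the last pair of bases and, upstream of it, a match to the motifs named below.
Ogdh, chr11:6291556-6291615, plus strand: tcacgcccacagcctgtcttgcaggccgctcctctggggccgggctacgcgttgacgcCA
Sucla2, chr14:73552745-73552804, plus strand: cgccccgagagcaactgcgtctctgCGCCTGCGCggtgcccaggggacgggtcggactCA
Mdh2, chr5:135778624-135778683, plus strand: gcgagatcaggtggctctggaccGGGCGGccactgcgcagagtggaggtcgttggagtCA
Fh1, chr1:175625606-175625665, minus strand: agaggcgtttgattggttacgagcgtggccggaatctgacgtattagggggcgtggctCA
Idh3g, chrX:73786865-73786924, minus strand: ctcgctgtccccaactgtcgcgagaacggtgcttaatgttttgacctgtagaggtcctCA

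All 5 runs ended in CA, the pyrimidine-purine pair at which most capped RNAs begin, with the A as the likely first base of the RNA. Over 4602 clusters with a RefSeq window, 78.2% had such a pair (C or T followed by A or G) ending 2 bases downstream of the recorded position. At the recorded position itself such a pair ended in 22.8%. The recorded positions thus lay 2 bases upstream of the likely first base of the RNA, directly before the dinucleotide, on both strands. This does not change the assignment of any member. *Idh3a* had no RefSeq window, the windows of *Cs* and *Suclg1* ended before the recorded position, and that of *Idh2* ended 1 base after it.

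In the windows of the 8 members that had one, 6 motifs were searched on both strands. GGGCGG, the core of Sp1 sites, was present in 6 of 8 members and in 35.7% of all 32851 windows. With 1 window per gene, the members ran from 51% G and C (*Suclg1*) to 68.3% (*Idh2*), against a median of 52.7% over all windows. The share of matches in windows of like G and C content was not computed. CCGGAAG, an ETS and GABP site, was present in the *Idh3g* window (8.86% of all windows), and GCGCANGCG, the core of NRF1 sites, in that of *Sucla2* (6.25% of all windows), where it is printed as its reverse complement. No window of a member held AAGGTCA, a core site of estrogen-related receptors (4.72% of all windows), TATAAA (13.6%) or CACGTG (7.15%). A match is a description of the letters and no evidence of binding.

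In the Pre group of experiment 1, the promoter levels of the members ran from 1349 to 192.4 normalised tags. *Idh2*, the NADP-linked isocitrate dehydrogenase of the matrix, was highest with 1349 ± 79.4 normalised tags (SD, n = 4). *Mdh2*, malate dehydrogenase, followed with 998.0 ± 30.2 normalised tags. Then came *Sucla2* (655.5 ± 44.8), the ADP-forming β subunit of succinyl-CoA synthetase, and *Cs* (639.6 ± 6.68), citrate synthase, which joins acetyl-CoA to oxaloacetate. Their ranges overlapped in the Pre group, and *Sucla2* was the higher of the pair in 16 of 28 libraries of experiment 1. *Idh3g* (424.8 ± 13.7), the γ subunit of the NAD-linked isocitrate dehydrogenase, was next. *Ogdh* (341.2 ± 9.11), the E1 subunit of 2-oxoglutarate dehydrogenase, and *Fh1* (329.1 ± 8.31), fumarate hydratase, could not be ordered. *Fh1* was the higher in 13 of 28 libraries. *Suclg1* (207.0 ± 6.72), the α subunit of succinyl-CoA synthetase, and *Idh3a* (192.4 ± 12.2), the catalytic α subunit of the NAD-linked enzyme, were lowest, with *Suclg1* higher in 23 of 28 libraries.

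**Figure D1:**
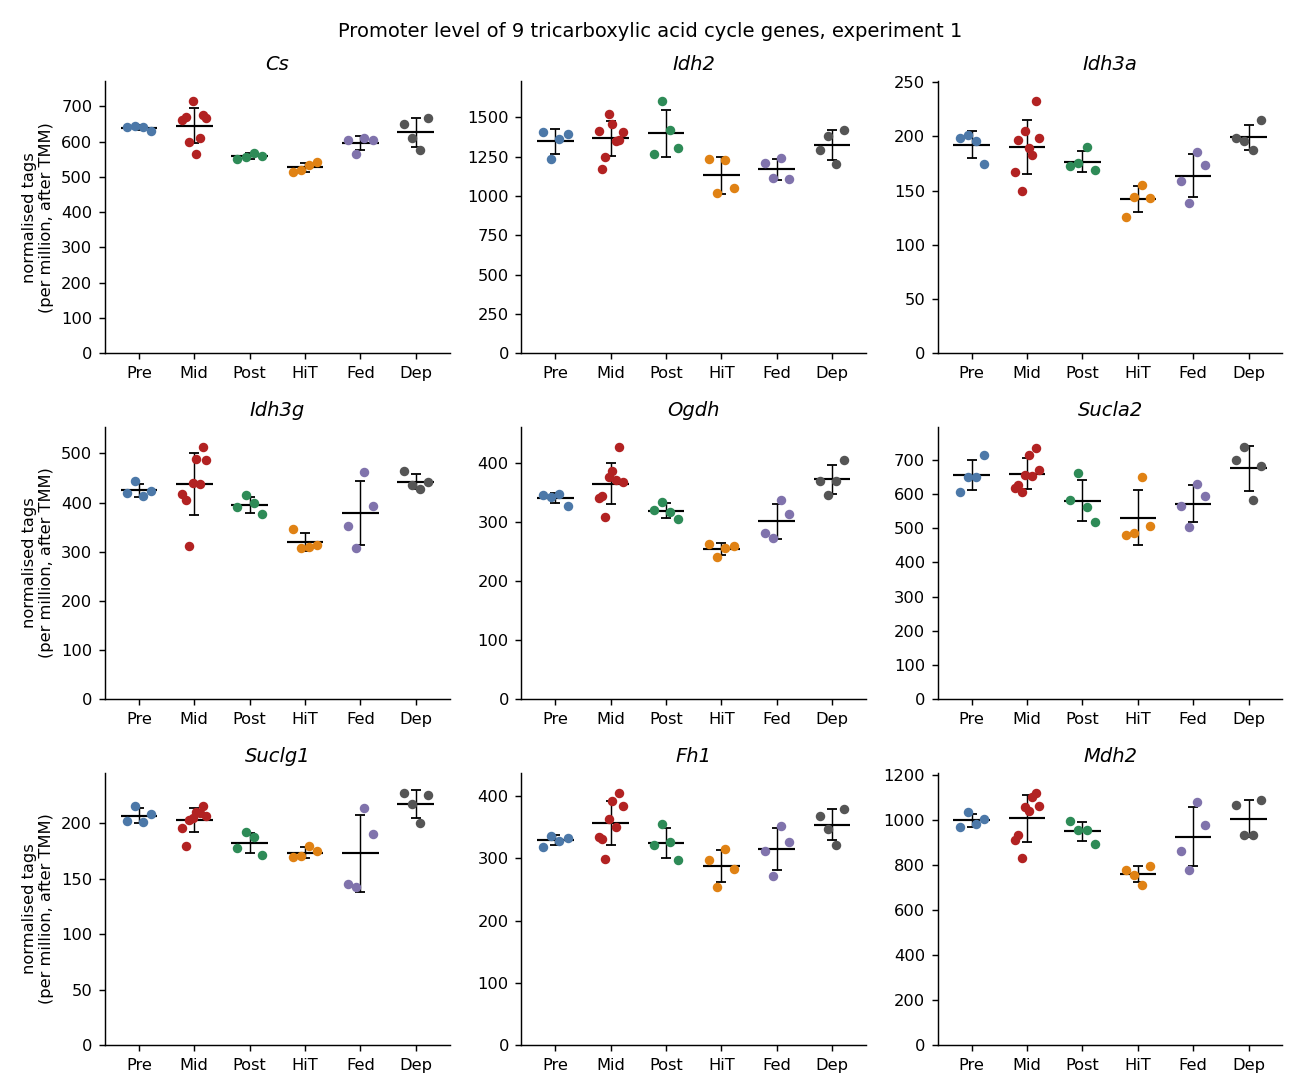
Promoter level of each of the 9 genes in the 28 libraries of experiment 1, in normalised tags on an axis that starts at 0. Points are libraries of 1 mouse each, and the lines are the group mean ± SD (4 mice per group, 8 in Mid). The HiT points of *Ogdh* (240.5 to 263.6) lie below all 8 Mid points (309.5 to 428), while the Pre and Mid points of every gene overlap.

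No member passed the test from Pre to Mid. Citrate synthase stood at 642.4, 644.1, 642.2 and 629.6 normalised tags in the 4 Pre mice, and at 565.2, 663.8 and 714.3 (lowest, median and highest) in the 8 Mid mice. *Mdh2* stood at 967.4, 1037, 982.5 and 1005 in Pre and at 828.8, 1049 and 1120.3 (lowest, median and highest) in Mid. For each of the 9 members the Pre and Mid ranges overlapped, and for *Cs* and *Mdh2* the Mid mice spread to both sides of the Pre mice. The log2 fold changes ran from -0.03 (*Suclg1*) to 0.12 (*Fh1*), with a median of 0.01 against 0.01 for all clusters. The 95% intervals of the 9 members lay between -0.20 and 0.28. By edgeR's quasi-likelihood F test, 0 of 9 members passed an adjusted p of 0.05, where 30.2% of all clusters did. At an unadjusted p below 0.05 the counts were 0 of 9 members and 40.5% of clusters, and by DESeq2 0 of 9 and 32.4%.

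Experiment 2 gave the same count with wider intervals. There, 0 of 9 members were called from Pre to Mid by edgeR (9.74% of all clusters) and 0 of 9 by DESeq2 (12.9%). *Idh3g* alone had an unadjusted p below 0.05, where 24.4% of clusters had one. It stood at 265 and 250 normalised tags in the 2 Pre mice and at 354.3, 280.7, 306.3, 319.9 and 280.3 in the 5 Mid mice, which were all higher. It was the only member of 9 without overlap there, where 31.25% of all clusters had none in either direction. Its log2 fold change was 0.26 ± 0.11 (SE), with an adjusted p of 0.18. The 95% intervals of the 9 members in experiment 2 lay between -0.37 and 0.50. The test of the difference between the experiments in the Pre to Mid change called 0 of 9 members and 0% of all clusters. At an unadjusted p below 0.05 it called 0 of 9 members and 4.76% of clusters.

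From Mid to Post, *Cs* and *Ogdh* fell in experiment 1. *Cs* stood at 549.4, 556.4, 568.3 and 559.2 normalised tags in the 4 Post mice and at 565.2, 663.8 and 714.3 (lowest, median and highest) in the 8 Mid mice. Only Post replicate 3 was above the lowest Mid mouse, and no Post mouse reached the other 7. Its log2 fold change was -0.21 ± 0.06 (SE; edgeR adjusted p = 0.00508). *Ogdh* stood at 321.6, 335.2, 318.5 and 305.2 in Post against 309.5, 369.9 and 428.0 in Mid, and its log2 fold change was -0.19 ± 0.07 (adjusted p = 0.0320). The Post and Mid ranges overlapped for all 9 members. These 2 of 9 members compare with 17.5% of all clusters that were called lower in Post. The other members had log2 fold changes between -0.18 (*Sucla2*) and 0.03 (*Idh2*), and the median of the members was -0.15 against -0.01 for all clusters. Without TMM and with upper-quartile scaling, 0 of 9 members were called. Leaving out 1 library at a time left 1 to 3 called. Only *Cs* was called without any 1 of Mid replicates 5, 6, 7 and 8, Post replicates 1, 3 and 4 or HiT replicates 1, 3 and 4.

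In experiment 2 all 9 members had negative log2 fold changes from Mid to Post, between -0.23 (*Suclg1*) and -0.08 (*Idh2*), with a median of -0.19 against -0.01 for all clusters. *Mdh2* stood at 1286, 1217, 1214, 1274 and 1242 normalised tags in the 5 Mid mice and at 1115, 1105 and 1053 in the 3 Post mice, so that every Post mouse was below every Mid mouse. The same held for *Sucla2*, *Suclg1* and *Fh1*, and 4 of 9 members compare with 12% of all clusters in which Post lay below Mid without overlap. None of these changes passed the test: edgeR called 0 of 9 members (16.4% of all clusters), 3 of 9 had an unadjusted p below 0.05 (30.2%), and DESeq2 called 2 of 9 (18.8%). The sequencing lanes of experiment 2 nearly coincide with the groups, since 1 lane held both Pre mice with Mid replicates 9 to 12 and the other held Mid replicate 13 with the Post mice. With lane as a term the median log2 fold change of the members from Mid to Post was -0.097, and lane and group can be told apart only through Mid replicate 13.

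Pre and Post were compared in both experiments. In experiment 1, 0 of 9 members were called by edgeR (1.85% of all clusters) and 1 of 9 by DESeq2 (3.21%), and 1 of 9 had an unadjusted p below 0.05 (12.8%). That member was *Cs*, with a log2 fold change of -0.20 ± 0.06 (SE) and an adjusted p of 0.14. Its 4 Post mice stood at 549.4 to 568.3 normalised tags and its 4 Pre mice at 629.6 to 644.1. The Post mice of *Suclg1* (171.7 to 192.4) were likewise all below its Pre mice (201.2 to 215.9). Its log2 fold change was -0.18 ± 0.09, with an edgeR adjusted p of 0.40. The share of all clusters without overlap between Pre and Post was not computed. The separation in *Cs* and *Suclg1* therefore has no background to be set against. In experiment 2, 0 of 9 members were called by edgeR (0.111% of all clusters) and 0 of 9 by DESeq2 (1.66%). *Idh3a* had an unadjusted p below 0.05 there, as 11.1% of clusters did, with a log2 fold change of -0.32 ± 0.12 and an adjusted p of 0.35.

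**Figure D2:**
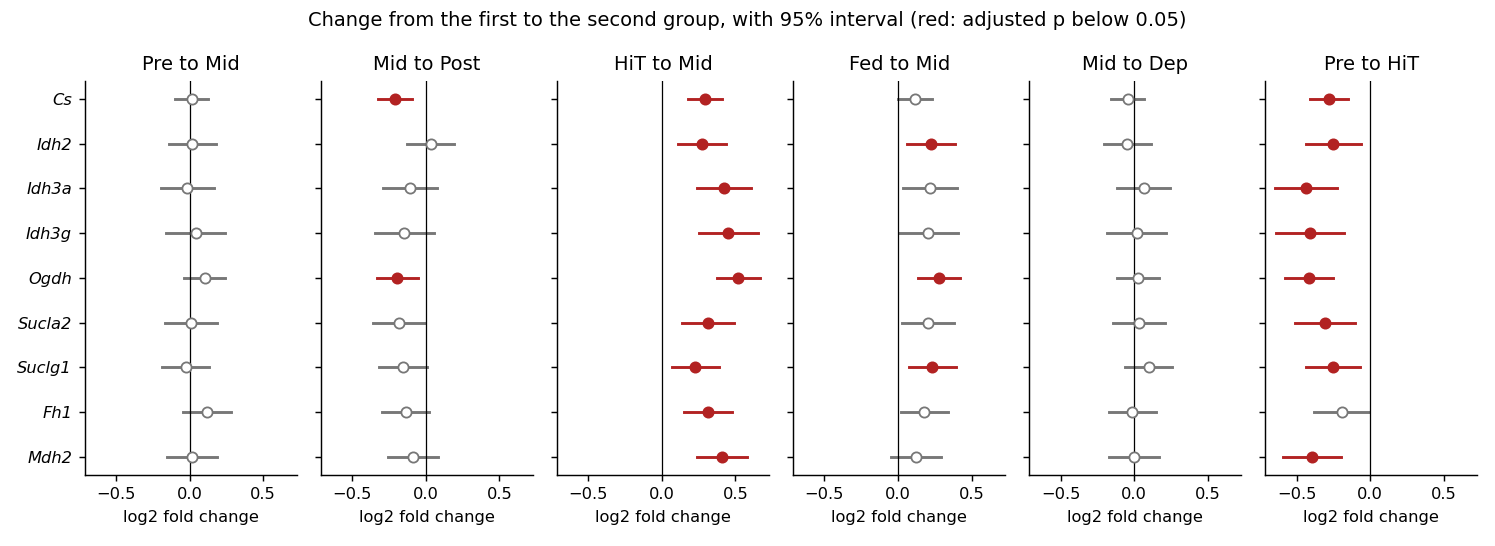
log2 fold change of each of the 9 genes from the first to the second group named above each panel, in experiment 1, with 95% intervals; filled red points passed an adjusted p of 0.05. All 9 intervals lie above 0 for HiT to Mid, and all 9 include 0 for Pre to Mid and for Mid to Dep.

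The largest differences within experiment 1 were with the warm fasted mice. All 9 members were higher in Mid than in HiT. *Ogdh* stood at 263.6, 240.5, 256.4 and 260.3 normalised tags in the 4 HiT mice, and at 309.5, 369.9 and 428.0 (lowest, median and highest) in the 8 Mid mice. Every HiT mouse was below every Mid mouse, and the log2 fold change of 0.52 ± 0.07 (SE; edgeR adjusted p = 1.74e-06) was the largest among the members, 1.43 times.

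The entry and the last step of the cycle showed the same order. *Mdh2* stood at 775.5, 753.5, 710.4 and 793.3 in HiT against 828.8, 1049 and 1120.3 (lowest, median and highest) in Mid, with a log2 fold change of 0.41 ± 0.08 (adjusted p = 0.000352). *Cs* stood at 512.7, 520.0, 533.4 and 541.4 in HiT against 565.2, 663.8 and 714.3 (lowest, median and highest) in Mid, with a log2 fold change of 0.29 ± 0.06 (adjusted p = 0.000182). Neither gene had a HiT mouse within the Mid range.

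Both members that encode subunits of the NAD-linked isocitrate dehydrogenase, an allosterically regulated enzyme of the cycle, rose from HiT to Mid. *Idh3g* stood at 346.9, 308.2, 309.5 and 313.0 in HiT against 310.7, 438.0 and 513.0 (lowest, median and highest) in Mid, with a log2 fold change of 0.45 ± 0.10 (adjusted p = 0.000705). *Idh3a* stood at 125.8, 144.1, 154.7 and 143.4 in HiT against 149.8, 192.9 and 232.4 (lowest, median and highest) in Mid, with a log2 fold change of 0.42 ± 0.09 (adjusted p = 0.000546). The lowest Mid mouse, replicate 3 for both genes, fell within the HiT range. *Idh2*, the NADP-linked enzyme, had a smaller log2 fold change of 0.27 ± 0.08 (adjusted p = 0.00798), with HiT values of 1237, 1017, 1230.1 and 1048 that overlapped the Mid range of 1173 to 1521.

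The succinyl-CoA synthetase subunits and fumarate hydratase completed the group. *Suclg1* stood at 169.2, 170.8, 179.8 and 174.9 in HiT against 180.0, 205.6 and 216.0 (lowest, median and highest) in Mid and had the smallest log2 fold change, 0.23 ± 0.08 (adjusted p = 0.0227). For *Sucla2*, the HiT mice stood at 479.7, 484.8, 651.0 and 507.0, and HiT replicate 3 lay within the Mid range of 606.8 to 734.9, and the log2 fold change was 0.31 ± 0.09 (adjusted p = 0.00530). *Fh1* stood at 297.5, 254.6, 315.0 and 283.6 in HiT against 298.5, 356.6 and 405.4 (lowest, median and highest) in Mid, with a log2 fold change of 0.31 ± 0.08 (adjusted p = 0.00266).

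These 9 of 9 members compare with 19.2% of all clusters that were called higher in Mid than in HiT, and their median log2 fold change of 0.31 with 0.02 for all clusters. In 4 of 9 members (*Cs*, *Ogdh*, *Suclg1* and *Mdh2*) every HiT mouse was below every Mid mouse, as in 7.41% of all clusters. Without HiT replicate 4 the call held for 9 of 9 members, with log2 fold changes between 0.26 and 0.56. Without TMM it held for 7 of 9 members, and in that fit the median over all clusters was itself 0.11.

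From the fed Pre mice to the HiT mice all 9 log2 fold changes were negative, and 8 of 9 members were called lower. This comparison shares the HiT libraries with the one above. *Idh3a* (log2 fold change -0.44 ± 0.10, SE), *Ogdh* (-0.42 ± 0.08), *Idh3g* (-0.41 ± 0.11) and *Mdh2* (-0.40 ± 0.10) fell most from Pre to HiT, with edgeR adjusted p-values between 0.000199 and 0.00588. *Sucla2*, *Cs*, *Suclg1* and *Idh2* fell with log2 fold changes between -0.30 and -0.25. *Fh1* did not pass the test, at -0.19 ± 0.09 with an adjusted p of 0.10. Of all clusters, 14.9% were called lower in HiT than in Pre. In 7 of 9 members every HiT mouse was below every Pre mouse, as in 16.6% of all clusters.

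The number of members called from Pre to HiT rested in part on single libraries. It was 6 without HiT replicate 4, and 5 without HiT replicate 2 or without Pre replicate 4, while all 9 log2 fold changes stayed negative without any of them. The summed level of the 8 fast glycolytic muscle markers was between 11466 and 13255 normalised tags in HiT, between 12637 and 15757 in Pre and between 11516 and 16056 in Mid, and none of these markers was at 0 in all libraries of a group. The summed level of the 7 slow muscle markers was between 10027 and 12746 normalised tags in HiT, between 13574 and 15096 in Pre and between 11697 and 16436 in Mid. With a score of the fast markers as a covariate, 4 of 9 members were called from Pre to HiT (*Cs*, *Idh3a*, *Mdh2* and *Ogdh*) and 8 of 9 from HiT to Mid. The median log2 fold change from Pre to HiT was then -0.24, against -0.30 without the score, and all 9 were negative. The score was computed from TPM and not from normalised tags, so it also carries the composition of a library. In HiT replicate 4 the fast markers summed to 7601.7 TPM but to 11721.7 normalised tags. Whether fast muscle content accounts for the lower count was therefore not tested. Of the slow muscle clusters, 6 of 22 rose from HiT to Mid and none fell (0), where 19.2% of all clusters rose. Their part in the difference was not tested. In bulk muscle, fewer cells of a type and less RNA per cell cannot be told apart.

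No change was detected between Mid and the Dep mice, which were fasted at the low ambient temperature and kept from torpor. *Ogdh* stood at 369.6, 347.0, 369.9 and 405.1 normalised tags in Dep, within the Mid range. From Mid to Dep, edgeR called 0 of 9 members (2.03% of all clusters), 0 of 9 had an unadjusted p below 0.05 (19.2%), and DESeq2 called 0 of 9 (4.45%). The log2 fold changes lay between -0.05 and 0.10, with a median of 0.02, and their 95% intervals between -0.21 and 0.26. In 7 of 9 members, all but *Idh2* and *Sucla2*, every HiT mouse was below every Dep mouse, as in 11.8% of all clusters.

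The mean of the Fed mice lay between those of HiT and Mid for 8 of 9 members, all but *Suclg1*, with wide spread. *Suclg1* stood at 145.5, 142.4, 213.5 and 190.1 normalised tags in Fed, so that 2 Fed mice were below every Mid mouse (180.0 to 216.0) and Fed replicate 3 was near the top of their range. From Fed to Mid, *Ogdh* (0.28 ± 0.07, SE; edgeR adjusted p = 0.00301), *Suclg1* (0.23 ± 0.08; adjusted p = 0.0227) and *Idh2* (0.22 ± 0.08; adjusted p = 0.0310) rose on the log2 scale. These 3 of 9 members compare with 16.6% of all clusters called higher in Mid. The other 6 had log2 fold changes between 0.11 and 0.21 that did not pass, and the median of the members was 0.21 against 0.0026 for all clusters.

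Which members were called from Fed to Mid depended on scaling and on single mice. Without TMM, where the median over all clusters moved to -0.12, 0 of 9 members were called. Without Fed replicate 3 or without Mid replicate 3, 7 of 9 members were called, without any 1 of Mid replicates 2 and 6, Post replicate 1, HiT replicates 3 and 4 or Dep replicate 4, 5 of 9, and without Fed replicate 2, 1 of 9. The red blood cell markers (4 of 5 listed genes with a cluster) summed to between 2814 and 13751 normalised tags in Fed and between 2989.5 and 4238 in Mid, and their part in the result was not tested. From Pre to Fed, edgeR called 0 of 9 members (11.2% of all clusters), 4 of 9 had an unadjusted p below 0.05 (27.3%), and DESeq2 called 1 of 9 (14.5%). All 9 log2 fold changes were negative, between -0.26 (*Suclg1*, adjusted p = 0.0594) and -0.06 (*Fh1*).

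The other genes of the cycle were measured in the same fits. Of the 9 clusters listed for the rest of the cycle, 6 rose from HiT to Mid and 3 did not pass, where 19.2% of all clusters rose. *Sdhc*, a membrane anchor of succinate dehydrogenase, had the largest log2 fold change with 0.49 ± 0.09 (SE; adjusted p = 8.35e-05), followed by *Sdha* (0.36 ± 0.09) and *Idh3b* (0.33 ± 0.11). From Pre to Mid only *Sdhd*, the other membrane anchor, was called, and it fell (log2 fold change -0.20 ± 0.07, adjusted p = 0.0214), as did 14.8% of all clusters. From Fed to Mid, 3 of 9 rose (*Dld*, *Sdha* and *Sdhc*), where 16.6% of all clusters rose.

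The pyruvate dehydrogenase complex, which makes acetyl-CoA from pyruvate and feeds the cycle, followed the members. All 4 of its clusters (*Pdha1*, *Pdhb*, *Dlat* and *Pdhx*) rose from HiT to Mid, and all 4 fell from Pre to HiT. Of all clusters, 19.2% rose from HiT to Mid and 14.9% fell from Pre to HiT. *Pdha1*, the regulated E1α subunit, stood at 436.6 ± 35.2 normalised tags (SD, n = 4) in HiT and 613.0 ± 39.6 (n = 8) in Mid, with a log2 fold change of 0.49 ± 0.08 (SE; adjusted p = 2.01e-05). From Pre to Mid, 0 of the 4 were called by edgeR (30.2% of all clusters) and 0 had an unadjusted p below 0.05 (40.5%). From Fed to Mid, *Pdha1* alone passed, with 0.30 ± 0.08.

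**Figure D3:**
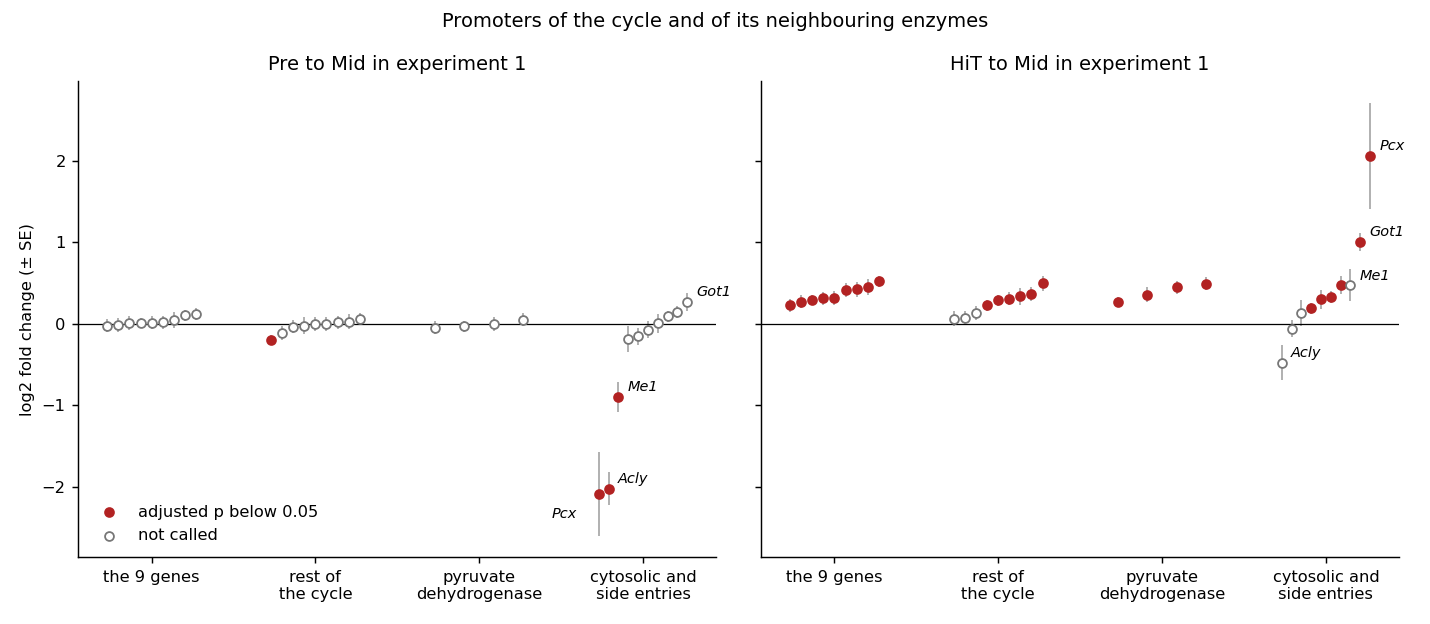
log2 fold change ± SE of the clusters of the 9 genes, the rest of the cycle, the pyruvate dehydrogenase complex and the cytosolic counterparts and side entries, from Pre to Mid (left) and from HiT to Mid (right) in experiment 1. Points are clusters in order of their value within a list, and red points passed an adjusted p of 0.05. *Acly*, *Me1* and the weaker *Pcx* promoter lie below 0 from Pre to Mid (-2.03, -0.89 and -2.09), while the 9 genes stay between -0.03 and 0.12.

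Of the 10 clusters of cytosolic counterparts and side entries of the cycle, 3 fell from Pre to Mid in experiment 1 and 7 did not pass. Of all clusters, 14.8% were called lower and 30.2% were called in either direction. *Acly*, ATP citrate lyase, splits exported citrate to supply acetyl-CoA for fatty acid synthesis. It stood at 43.6 ± 10.7 normalised tags (SD, n = 4) in Pre, 10.7 ± 1.81 (n = 8) in Mid and 47.1 ± 18.2 (n = 4) in Post, with log2 fold changes of -2.03 ± 0.20 (SE; adjusted p = 1.06e-07) from Pre to Mid and 2.14 ± 0.20 from Mid to Post. *Me1*, malic enzyme, which supplies NADPH for that synthesis, fell from Pre to Mid (log2 fold change -0.89 ± 0.18) and rose by 1.07 ± 0.18 to Post. *Pcx*, pyruvate carboxylase, which supplies oxaloacetate to the cycle in the matrix, has 2 clusters, and only the weaker, at 4594341 on chromosome 19, fell (log2 fold change -2.09 ± 0.51, adjusted p = 0.00284). Its level was low, with 7.97 ± 3.31 normalised tags (SD) in Pre and 1.88 ± 1.81 in Mid. In experiment 2 the log2 fold changes from Pre to Mid were -1.75 ± 0.30 for *Acly* (adjusted p = 0.00562) and -1.67 ± 0.45 for that *Pcx* cluster (adjusted p = 0.0408), while *Me1* did not pass, at -0.63 ± 0.19 (adjusted p = 0.0593). In experiment 1 the adipocyte markers (6 genes) summed to between 268.4 and 895.5 normalised tags in Pre and between 78.7 and 1155 in Mid. Their part in these changes was not tested.

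*Acly* and *Got1* differed from each other in their order over the groups. *Acly* was low in all 3 fasted groups of day 2, with 10.7 ± 1.81 normalised tags in Mid, 14.9 ± 0.537 in HiT and 10.8 ± 0.796 in Dep, and stood at 36.2 ± 15.1 in Fed. *Got1*, the cytosolic aspartate aminotransferase of the malate-aspartate shuttle, instead stood at 308.5 ± 36.2 in Pre, 371.3 ± 57 in Mid and 185.1 ± 22.9 in HiT. It rose from HiT to Mid by 1.00 ± 0.11 (SE; adjusted p = 1.11e-07) on the log2 scale. *Mdh1*, the cytosolic malate dehydrogenase of the same shuttle, rose by 0.47 ± 0.11 and *Got2*, the mitochondrial aminotransferase, by 0.33 ± 0.07.

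The nuclear genes of the respiratory chain subunits had 93 clusters. From HiT to Mid 45 rose and 1 fell, with a median of 0.23, where 19.2% of all clusters were called higher. From Pre to HiT 62 fell and none rose (0), with a median of -0.37, where 14.9% of all clusters were called lower. From Pre to Mid in experiment 1, 18 of these 93 clusters fell and 0 rose, with a median log2 fold change of -0.16, where 14.8% of all clusters were called lower, and the difference from the 9 members was not tested. In experiment 2, 0 of 93 were called from Pre to Mid (9.74% of all clusters), with a median of -0.05. From Pre to Fed 55 of 93 fell, with a median of -0.35, where 5.32% of all clusters were called lower. The members had a median of -0.18 in that comparison.

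**Figure D4:**
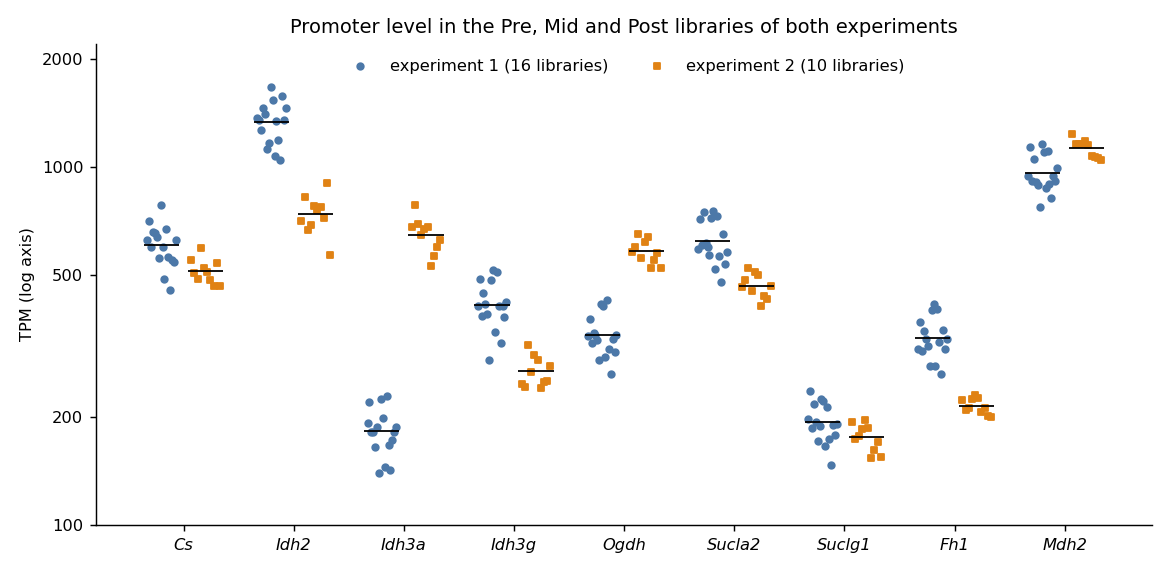
Promoter level of the 9 genes as deposited TPM, on a log axis, in the 16 Pre, Mid and Post libraries of experiment 1 (blue circles) and the 10 libraries of experiment 2 (orange squares). Points are libraries, and lines are means. *Idh3a* lies between 139.5 and 229.7 TPM in experiment 1 and between 528.5 and 780.2 in experiment 2.

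Some members also differed in level between the experiments. *Idh3a*, the lowest member in experiment 1 with a mean of 182.5 TPM over 16 Pre, Mid and Post libraries, had 645 TPM over the 10 libraries of experiment 2, 3.54 times as much. *Ogdh* was 1.71 times as high, with 339 and 580 TPM. *Idh2* was lower in experiment 2, with 738 TPM against 1335, and *Fh1* was lower with 215 against 333. For these 4 genes the ranges of the experiments did not overlap, while those of *Cs*, *Idh3g*, *Sucla2*, *Suclg1* and *Mdh2* did. As a result *Mdh2* and not *Idh2* was the highest member in experiment 2, in 10 of 10 libraries.

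Such differences were common: 17.6% of all clusters differed by over 2 times in mean TPM between the experiments, and 6.49% were over 3 times as high in experiment 2. Among the rest of the cycle, *Sdhc* had 3.01 times and *Idh3b* 2.34 times as much in experiment 2 as in experiment 1. The experiments differ at least in mice, sequencer and depth, which cannot be told apart. The methods name 2 aligners and do not say which served which experiment. The deposited labels of the experiment 1 libraries hold bwa, and those of experiment 2 are built otherwise and name no aligner. A difference in processing is therefore possible and was not tested. Levels are comparable only within an experiment.

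Correlations between the members depended on the libraries and the scale. On log2 values after TMM in the 28 libraries of experiment 1, Pearson's r over the 36 pairs of members ran from 0.44 (*Cs* with *Idh2*) to 0.93 (*Idh3g* with *Mdh2*), with a median of 0.74. Without the 4 HiT libraries r ran from 0.19 to 0.90 over 24 libraries, with a median of 0.72, and in the 10 libraries of experiment 2 from -0.14 to 0.88, with a median of 0.60. On log2(TPM + 0.1), where the share of tags in a few clusters moves all other clusters together, the median was 0.89. These values describe libraries that share group, depth and composition, and other pairs of clusters were not computed for comparison.

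By the mean standardised log2(TPM + 0.1) of the members over 28 libraries, the 8 annotated clusters most like them outside the lists were those of *Nipsnap2* (r = 0.97), *Echs1* (0.97), *Acat1* (0.96), *Slc25a3* (0.95), *Chchd10* (0.95), *Gm5131* (0.95), *Nme2* (0.95) and *Immt* (0.95). *Echs1* and *Acat1* encode enzymes of fatty acid and ketone body oxidation, *Slc25a3* the mitochondrial phosphate carrier and *Immt* a protein of the mitochondrial cristae junction. Of these 8 clusters, 5 were also among the 8 most alike after TMM, 4 were without HiT on the TPM scale, and 2 were without HiT after TMM. In experiment 2, over 10 libraries after TMM, 0 of the 8 were among the 8 most alike.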

How the data were processed

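CAGE libraries of the soleus of 38 mice were analysed, 28 in experiment 1 and 10 in experiment 2. After trimming, the authors aligned reads by BWA and HISAT2 (build mm10) and grouped the 5′ ends of all libraries into 1 set of promoters, rescuing tags with several map positions. The authors deposited raw tag counts and, beside them, TPM for each cluster and library, that is counts scaled to 1000000 tags per library. Tags that map to near-identical genes may therefore be split between them.

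Here the counts were tested in R 4.3.3 with the quasi-likelihood F test of edgeR 4.0.16 after TMM scaling, with 1 fit for the 6 groups of experiment 1 and 1 for the 3 groups of experiment 2. All clusters with any tag in the libraries fitted were tested, p-values were adjusted by Benjamini-Hochberg over all of them, and an adjusted p of 0.05 was the threshold. Levels are counts per 1000000 tags in clusters after TMM, and likeness was computed on log2(TPM + 0.1). Clusters were assigned to genes by annotated 5′ ends of GENCODE for mm10, promoter windows came from RefSeq, and the scripts were tested on simulated data.

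All 9 genes are named, and of the other lists up to 5 called clusters for each comparison by size of change. The members and the lists were chosen with earlier results of these data known. Alternatives were DESeq2 1.42.0, other scaling, filters and samples in the fit, a replicate block, a fast muscle score computed from TPM, sequencing lane, and each library left out. The scales and libraries used for likeness were added after the data were seen. No pair of libraries of a group was a duplicate (72 pairs compared by chi-square). Values of 1 gene among the other lists are not reported here.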

Additional observations from a re-analysis of the deposited data

Results flagged for a closer look

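For the 9 genes in 7 groups of 4, 5 or 8 libraries, 63 sets of values in all, the library farthest from the others was examined with Dixon's criterion, and 5 were flagged, where chance flags about 1 in 20. All values are normalised tags, per 1000000 tags in clusters after TMM. *Cs* stood at 629.6 in Pre replicate 4, below the other Pre mice (642.2 to 644.1), and at 566.0 in Fed replicate 2, below the other Fed mice (603.2 to 609.9). *Idh3g* stood at 346.9 in HiT replicate 1, above the other HiT mice (308.2 to 313.0). *Sucla2* stood at 651.0 in HiT replicate 3, above the other HiT mice (479.7 to 507.0). In experiment 2, *Fh1* stood at 250.4 in Mid replicate 12, above the other Mid mice (236.8 to 239.9).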

How the results depend on the processing

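The number of members called from Mid to Post in experiment 1 (2) was 0 without TMM, 0 with upper-quartile scaling, 1 with only the 2 groups compared, 4 with all 38 libraries, and 1 to 3 with 1 library left out. From Fed to Mid (3) it was 7 with DESeq2, 0 without TMM, 1 with upper-quartile scaling, 0 with only the 2 groups compared, 7 with the fast muscle score, and 1 to 7 with 1 library left out. From Pre to HiT (8) it was 6 without TMM, 9 with upper-quartile scaling, 4 with the fast muscle score and 5 to 8 with 1 library left out. From HiT to Mid (9) it was 7 without TMM and 8 to 9 with 1 library left out. From Pre to Fed (0) it was 1 with DESeq2, 1 with upper-quartile scaling and 0 to 2 with 1 library left out, with 2 without Fed replicate 3 and 1 without Fed replicate 4. DESeq2 called 1 member from Pre to Post in experiment 1 and 2 from Mid to Post in experiment 2, where edgeR called 0. With the replicate number as a block, 5 members were called from HiT to Mid, 7 from Pre to HiT, 1 from Mid to Post and 0 from Fed to Mid. Whether the numbers pair the libraries was not settled. Over 60 pairs with the same number the median correlation of deviations was -0.02, against 0.03 over 260 pairs with other numbers. Of 24 libraries, 10 correlated best with one of their own number, and the count without pairing was not computed. Mid replicates 5 to 8 share their number with no other group of experiment 1. No paired fit was possible in experiment 2 because its groups share no replicate numbers. Of the log2 fold changes of called members, none changed sign under these alternatives. The cause of these changes was not tested. In groups with little spread, such as *Cs* in Pre, counting error is not small beside the spread, and the 2 Pre mice of experiment 2 limit what could be called there.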
